A study of Mus musculus with 3 samples.

Results

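The 9 genes described here are the neuregulin and EGF family ligands Nrg1, Nrg4, Egf, Areg and Btc and the receptors Egfr, Erbb2, Erbb3 and Erbb4, found by symbol among the 32285 genes of the deposited tables. They were followed by cell class and library in nuclei of mouse lacrimal gland, profiled with a droplet 3' kit. The series holds 3 libraries, 1 per group: scopolamine and dry stress with tamsulosin, an alpha-1 adrenergic blocker; scopolamine, a muscarinic blocker, and dry stress alone; and normal control. They are called tamsulosin, scopolamine and control. Strain, age, doses and the number of animals behind each library are not given in the sources used here. With 1 library per group no value has a replicate and no test between groups was possible, and every interval is a 95% interval for counting error only. The protocol text names a sort of red fluorescent nuclei beside a plate method, and whether that sort was applied to these libraries is not given there.

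The ERBB receptors are tyrosine kinases of the cell surface that signal as pairs. EGF, amphiregulin (Areg) and betacellulin (Btc) bind EGFR, betacellulin also binds ERBB4, and the neuregulins bind ERBB3 and ERBB4, with NRG4 binding ERBB4; ERBB2 has no known ligand and ERBB3 has a weak kinase, so both act as partners. In exocrine glands this system is known for branching and growth of the epithelium, and EGF is a known component of tears.

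After filtering, 10864 tamsulosin, 9205 scopolamine and 6780 control nuclei were kept, with medians of 3354, 1736 and 2304.5 UMIs (unique molecules counted) per nucleus. Pairs of libraries shared 22 to 35 cell barcodes. Acinar-like nuclei, named after the secretory cells, numbered 1770 in tamsulosin, 5638 in scopolamine and 4712 in control, and duct-like nuclei 3049, 613 and 423. The acinar name rests on little: in T or NK-like nuclei the median of the acinar markers measured at 20 or more CPM (16 of 17) stood at 1.03, 0.936 and 0.900 of its acinar-like level in tamsulosin, scopolamine and control, so these secretory transcripts were near the acinar-like level in immune nuclei too. The muscarinic receptor gene Chrm3, at higher levels in epithelial than in immune nuclei, stood there at 0.409, 0.499 and 0.669 of its acinar-like level. The libraries filled different clusters of 1 class: acinar-like nuclei lay mostly in cluster 11 in tamsulosin, 19 and 20 in scopolamine and 2 and 3 in control, and duct-like nuclei in cluster 9 in tamsulosin and cluster 5 in the other 2 libraries. The duct-like name of control nuclei depended on the setting, and few had it with at least 1600 UMIs or with doublets kept. Nuclei led by Car6 and Odam fell into cluster 10 in tamsulosin, 21 in scopolamine and 0 in control, and are given as clusters with no cell type name. Low-complexity clusters, with a median of fewer than 350 genes at 1000 UMIs, took 3124 tamsulosin, 518 scopolamine and 52 control nuclei. These were 28.8, 5.63 and 0.767% of the nuclei kept, and they are in none of the groups compared below. Levels are UMIs of a gene scaled to all UMIs of a class and library (CPM).

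On the mm10 annotation (GENCODE M21) the ligand genes lie on chromosome 8 (Nrg1, 31814551 to 32884029), chromosome 9 (Nrg4, 55220222 to 55326844), chromosome 3 (Egf, 129677565 to 129755316) and chromosome 5 (Areg, 91139599 to 91148432, and Btc, 91357261 to 91402994). The receptors lie on chromosome 11 (Egfr, 16752203 to 16918158, and Erbb2, 98412470 to 98437716), chromosome 10 (Erbb3, 128567523 to 128589652) and chromosome 1 (Erbb4, 68032186 to 69108059). Their Ensembl identifiers are ENSMUSG00000062991 (Nrg1), ENSMUSG00000032311 (Nrg4), ENSMUSG00000028017 (Egf), ENSMUSG00000029378 (Areg), ENSMUSG00000082361 (Btc), ENSMUSG00000020122 (Egfr), ENSMUSG00000062312 (Erbb2), ENSMUSG00000018166 (Erbb3) and ENSMUSG00000062209 (Erbb4). Nrg4 overlaps Fbxo22 on the other strand by 4212 bases, and Egfr overlaps the antisense gene Egfros by 15272. Whether counting used strand is not given in the sources used here. Whether reads from such stretches were told apart was therefore not settled.

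Promoter windows of 300 bases around a gene's start, most of it upstream, were available from RefSeq (GRCm38.p6) for 7 of the 9 genes. Those of Nrg4, Egf and Erbb4 are shown because these 3 genes were highest in acinar-like nuclei in at least 2 of the 3 libraries and only Nrg4 among them differed there between libraries by the fold used here; all 3 lie on the minus strand, at chr9:55283576-55283875, chr3:129755273-129755572 and chr1:69108010-69108309, and capitals mark motif matches.
Nrg4: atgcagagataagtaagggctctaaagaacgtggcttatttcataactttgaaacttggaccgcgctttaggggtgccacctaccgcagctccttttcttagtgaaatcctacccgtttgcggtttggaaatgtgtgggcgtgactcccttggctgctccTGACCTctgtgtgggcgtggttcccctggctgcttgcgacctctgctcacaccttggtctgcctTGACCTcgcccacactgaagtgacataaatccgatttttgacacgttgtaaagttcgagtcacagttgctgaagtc
Egf: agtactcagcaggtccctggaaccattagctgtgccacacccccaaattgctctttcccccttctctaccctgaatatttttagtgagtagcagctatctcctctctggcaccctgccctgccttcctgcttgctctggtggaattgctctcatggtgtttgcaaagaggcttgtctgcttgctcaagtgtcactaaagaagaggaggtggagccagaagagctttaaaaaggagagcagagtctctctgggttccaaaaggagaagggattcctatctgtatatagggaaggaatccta
Erbb4: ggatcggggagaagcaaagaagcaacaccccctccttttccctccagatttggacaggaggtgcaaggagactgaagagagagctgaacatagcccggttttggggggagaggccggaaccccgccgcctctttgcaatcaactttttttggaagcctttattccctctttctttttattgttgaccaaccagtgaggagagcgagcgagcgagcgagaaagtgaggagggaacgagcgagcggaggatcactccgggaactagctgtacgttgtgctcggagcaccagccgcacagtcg
Both strands were searched for AGGTCA, a half-site of nuclear receptors, CACGTG, an E-box, TATAAA, the TATA box, and GGGCGG, a GC box. The Nrg4 window held 2 matches to AGGTCA, read as TGACCT, with their first bases at -90 and -26 from the start. The Egf and Erbb4 windows held no match to any of the 4 motifs. Among all 32851 RefSeq windows of that length, 16.3% held AGGTCA, 7.15% CACGTG, 13.6% TATAAA and 35.7% GGGCGG. The Nrg4 window starts inside the longer GENCODE gene, and the matches describe letters only.

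Nrg4, a secreted or membrane-shed ligand of ERBB4, stood furthest apart between libraries among the 3 member ligands that passed 20 CPM in acinar-like nuclei (Nrg1, Nrg4 and Egf). It stood at 129 CPM in tamsulosin (1630 UMIs), 162 in scopolamine (2724 UMIs) and 48.7 in control (1067 UMIs). Both dry eye libraries were thus above control, 2.65-fold (2.45 to 2.87) for tamsulosin and 3.32-fold (3.09 to 3.57) for scopolamine, and tamsulosin stood at 0.799 of scopolamine (0.751 to 0.850). With the low-complexity clusters counted as acinar-like, Nrg4 stood at 79.0 CPM in tamsulosin and 133 in scopolamine. Control stayed between 46.1 and 48.7 CPM over the 8 settings in which levels were computed. After thinning to 1000 UMIs per nucleus, which left out 675 shallow scopolamine nuclei, 9.66% of tamsulosin, 12.8% of scopolamine and 4.35% of control acinar-like nuclei had an Nrg4 UMI, against 43.5, 25.5 and 15.05% unthinned. In T or NK-like nuclei, which should lack it, the thinned shares were 1.96, 2.73 and 1.85%, and the unthinned ones 8.82, 9.19 and 3.70%. The median depths were 5544.5, 1192 and 2034 UMIs in acinar-like and 2529, 1694 and 2236.5 in T or NK-like nuclei.

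The difference in Nrg4 was seen in every acinar-like cluster with 100 or more nuclei of a library. Cluster 11 held 130 CPM (124 to 137) in 1714 tamsulosin nuclei and 175 CPM (148 to 207) in 159 scopolamine nuclei. Nrg4 was the leading gene of cluster 20 although it took no part in the clustering. In scopolamine, cluster 20, at a median of 4894.5 UMIs, held 179 CPM (171 to 187) and cluster 19, at 1077 UMIs, held 119 CPM (110 to 130). Control cluster 3, at 7681 UMIs, held 48.8 CPM (45.2 to 52.7) and control cluster 2, at 1808 UMIs, held 48.4 CPM (43.8 to 53.4). The lowest dry eye cluster was therefore above the highest control cluster, and deep and shallow clusters differed in scopolamine but not in control beyond counting error. Fbxo22, the gene on the other strand, was at 21.9 CPM in tamsulosin, 21.8 in scopolamine and 29.8 in control acinar-like nuclei, which for scopolamine against control is -0.09 on the log2 scale relative to the class median. Over all kept nuclei, in which acinar-like nuclei made up 16.3% of tamsulosin, 61.2% of scopolamine and 69.5% of control, Nrg4 stood at 51.7, 114 and 42.5 CPM.

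**Figure D1:**
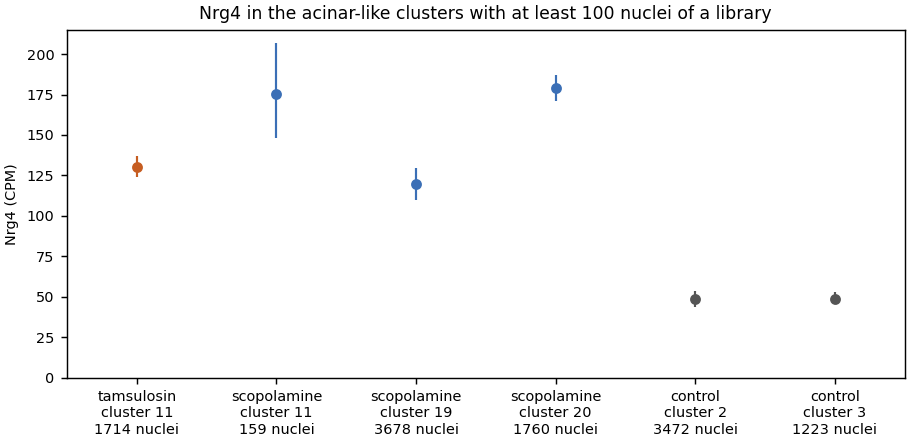
Nrg4 level (CPM, vertical axis) in each acinar-like cluster with at least 100 nuclei of a library, with 95% Poisson intervals. The tamsulosin cluster and the 3 scopolamine clusters lie between 119 and 179 CPM, and both control clusters lie under 50 CPM.

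In the other 6 cell groups Nrg4 was lower than in acinar-like nuclei of the same library. Duct-like nuclei held 17.0 CPM in tamsulosin, 61.6 in scopolamine and 31.8 in control; fibroblast-like nuclei held 48.5, 100.01 and 32.9 CPM; macrophage-like nuclei held 40.6, 77.7 and 26.4 CPM. Scopolamine was the highest library in each of these 3 classes. As a share of the acinar-like level, Nrg4 in T or NK-like nuclei was 0.416, 0.325 and 0.285 in tamsulosin, scopolamine and control, below the 1.03, 0.936 and 0.900 of the acinar markers. Chrm3 stood there at 0.409, 0.499 and 0.669, so Nrg4 was near it in tamsulosin and below it in scopolamine and control. In fibroblast-like nuclei Nrg4 stood at 0.376, 0.619 and 0.675, beside 0.407, 0.757 and 0.733 for Chrm3. In macrophage-like nuclei it stood at 0.315, 0.481 and 0.543, beside 0.332, 0.550 and 0.694. In myoepithelial-like nuclei Nrg4 stood at 57.5, 99.04 and 24.6 CPM, but the thinned shares of nuclei with a UMI were 2.94, 3.75 and 3.497%, which did not separate the libraries. The part of free acinar RNA in these levels was not tested.

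Nrg1, the neuregulin known from axon, glia and muscle signalling, was a transcript of myoepithelial-like nuclei, the contractile cells around acini, and of the Car6 and Odam clusters. Myoepithelial-like nuclei held 721 CPM in tamsulosin (683 to 760), 435 in scopolamine (413 to 457) and 748 in control (708 to 790). That was 44.9, 21.2 and 31.7 times the acinar-like level of 16.1, 20.5 and 23.6 CPM. Tamsulosin and control did not differ beyond counting error (0.964, 0.893 to 1.04), and scopolamine was lower; yet the thinned shares of myoepithelial-like nuclei with a UMI were 50.6, 42.9 and 47.9% (unthinned 79.7, 73.4 and 76.9%), closer together than the CPM. The scopolamine difference from control was a relative log2 ratio (log2 of the CPM ratio less the median of all genes tested in the class) of -0.64 and turned to 0.088 where all nuclei had at least 1600 UMIs, so its direction was not stable.

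The Car6 and Odam clusters held 415 CPM of Nrg1 in tamsulosin cluster 10 (393 to 438), 506 in scopolamine cluster 21 (460 to 555) and 296 in control cluster 0 (267 to 327). Most of these nuclei lay in a different cluster in each library. Within cluster 10 the 42 scopolamine nuclei held 95.2 CPM (45.7 to 175), below tamsulosin, so the order of the 2 dry eye libraries depended on the cluster read. Nrg1 was among the 10 leading genes of cluster 10 although it took no part in the clustering. The thinned shares over these clusters were 21.5, 23.2 and 22.7% (unthinned 36.5, 37.3 and 41.4%), with no library apart. In T or NK-like nuclei Nrg1 had 23 UMIs in tamsulosin, 16 in scopolamine and 1 in control, which gives 9.63-fold (1.56 to 397) for tamsulosin against control and 11.5-fold (1.79 to 484) for scopolamine against control. Thinned, 3.92, 2.19 and 0% of T or NK-like nuclei had a UMI, the last being 0 of 108.

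Egf, the founding ligand of EGFR, was lower in both dry eye libraries than in control in acinar-like nuclei. It held 223 CPM in tamsulosin (215 to 232), 265 in scopolamine (257 to 273) and 330 in control (322 to 338). The scopolamine level was 0.804 of control (0.774 to 0.834), but all measured genes of the class had a median log2 ratio of -0.29, and relative to that median the log2 ratio of Egf was -0.02. Thinned, 18.1, 17.9 and 25.3% of acinar-like nuclei had a UMI, against 7.35, 7.65 and 12.04% of T or NK-like nuclei; unthinned these shares were 63.4, 34.9 and 54.8% against 14.2, 16.2 and 40.7%. In duct-like nuclei Egf held 77.5, 157 and 237 CPM, the lowest in tamsulosin.

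Btc and Areg were rare. Btc held 9.68 CPM in tamsulosin, 8.52 in scopolamine and 7.03 in control duct-like nuclei, from 150, 22 and 21 UMIs, with intervals that overlap. In acinar-like nuclei it held 2.06, 2.02 and 1.87 CPM, and duct-like nuclei were 4.70-fold (3.09 to 7.43), 4.22-fold (2.35 to 7.44) and 3.76-fold (2.11 to 6.50) above them in the same libraries. Thinned, 0.722, 0.980 and 1.42% of duct-like nuclei had a Btc UMI, against 0.490, 1.09 and 0% of T or NK-like nuclei, so the scopolamine share was not above background. Areg had 5 UMIs in the whole tamsulosin library, 4 in scopolamine and 0 in control, where a count of 0 allows up to 0.0950 CPM (3 counts of 31575927). It was not detectable as a class transcript at this depth, and had 0 UMIs in fibroblast-like nuclei of all 3 libraries.

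**Figure D2:**
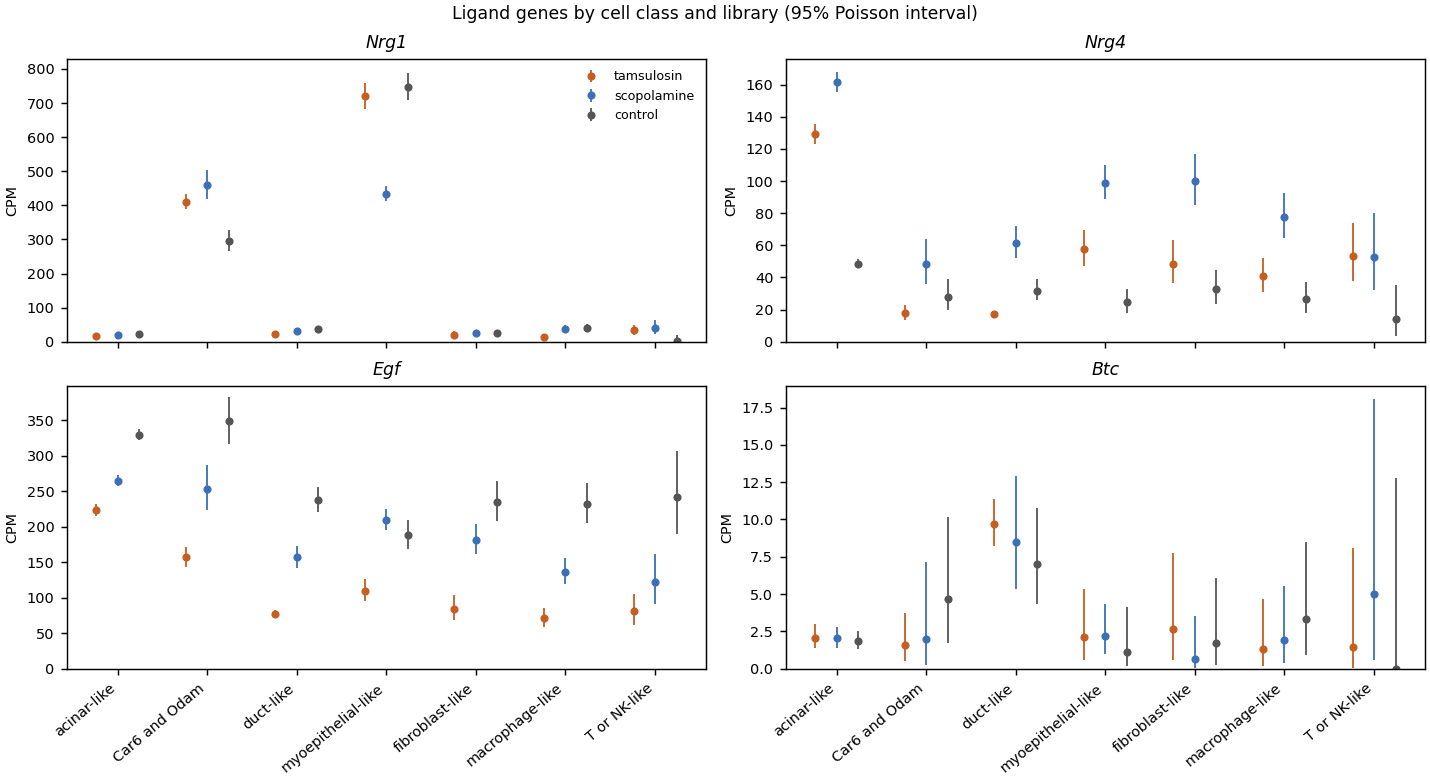
Levels of Nrg1, Nrg4, Egf and Btc (CPM, vertical axes, each from 0) in 7 cell groups and 3 libraries, with 95% Poisson intervals. Nrg1 stands high in myoepithelial-like nuclei (721, 435 and 748 CPM) and the Car6 and Odam clusters, and Nrg4 in acinar-like nuclei (129, 162 and 48.7 CPM).

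Erbb4, the receptor for neuregulins and betacellulin, had the most UMIs of the 9 genes and the longest gene body, 1076 kb. Acinar-like nuclei held 1935 CPM in tamsulosin (1911 to 1960), 2252 in scopolamine (2229 to 2275) and 2159 in control (2140 to 2179). The libraries thus lay within a narrow range, and scopolamine was 1.04 of control (1.03 to 1.06). That range held only without the low-complexity clusters. With them counted as acinar-like, tamsulosin stood at 1175 CPM and scopolamine at 1865. Control stayed between 2030 and 2345 CPM over the 8 settings in which levels were computed. Thinned, 78.9, 83.9 and 88.6% of acinar-like nuclei had a UMI, against 26.0, 55.7 and 84.3% of T or NK-like nuclei (unthinned 96.3, 90.1 and 98.9% against 48.04, 75.1 and 95.4%). In control that difference is small, and Erbb4 in T or NK-like nuclei stood at 0.781 of its acinar-like level there, beside 0.669 for Chrm3. In tamsulosin the same shares were 0.331 for Erbb4 and 0.409 for Chrm3, and in scopolamine 0.474 and 0.499. The part of free acinar RNA in the Erbb4 signal of other classes was not tested.

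In tamsulosin duct-like nuclei Erbb4 was at 387 CPM, against 1134 in scopolamine and 1185 in control, a ratio of 0.341 to scopolamine (0.326 to 0.357) and 0.327 to control (0.313 to 0.341). This sets cluster 9 (312 CPM, 3014 tamsulosin nuclei) beside cluster 5 (1197 CPM in 545 scopolamine and 1184 CPM in 419 control nuclei). Within cluster 9 the 68 scopolamine nuclei held 582 CPM, and within cluster 5 the 35 tamsulosin nuclei, at a median of 9557 UMIs, held 1882 CPM, above scopolamine. The direction therefore depended on which cluster was read, and in cluster 5 it rests on those 35 tamsulosin nuclei. Nrg4 ran alike, at 161 CPM in tamsulosin, 65.1 in scopolamine and 31.9 in control nuclei of cluster 5, against 9.76 CPM in tamsulosin and 30.4 in scopolamine nuclei of cluster 9. Egf did the same, with 67.9 CPM in tamsulosin and 129 CPM in scopolamine in cluster 9, and with 267, 160 and 238 CPM in tamsulosin, scopolamine and control in cluster 5. The 35 tamsulosin nuclei of cluster 5 were thus nearer to tamsulosin acinar-like than duct-like levels of Erbb4 (1935 CPM), Nrg4 (129) and Egf (223). Their Egfr, at 355 CPM, was nearer to the duct-like 361 than to the acinar-like 201. Whether they are duct nuclei was not tested. Among the Car6 and Odam clusters Erbb4 held 390 CPM in tamsulosin cluster 10, 1285 in scopolamine cluster 21 and 1743 in control cluster 0.

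Egfr, the receptor for EGF, amphiregulin and betacellulin, was highest outside acinar-like nuclei. Fibroblast-like nuclei held 560 CPM in tamsulosin (517 to 605), 592 in scopolamine (554 to 631) and 383 in control (349 to 420). Both dry eye libraries were above control, with ratios of 1.46 (1.29 to 1.65) for tamsulosin and 1.54 (1.38 to 1.73) for scopolamine, and did not differ from each other beyond counting error (0.946, 0.854 to 1.05). Thinned, 39.7, 44.5 and 37.1% of fibroblast-like nuclei had a UMI, against 7.84, 10.9 and 9.26% of T or NK-like nuclei (unthinned 69.2, 69.4 and 66.5% against 16.7, 20 and 25%); their median depths were 2900, 2203.5 and 2588.5 UMIs. The thinned shares were nearer to each other than the CPM.

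Myoepithelial-like nuclei held 449, 495 and 406 CPM of Egfr, duct-like nuclei 361, 391 and 330, and acinar-like nuclei 201, 245 and 193 in tamsulosin, scopolamine and control. Of the 7 groups compared, fibroblast-like nuclei were first and myoepithelial-like nuclei next in both dry eye libraries. In control the intervals of fibroblast-like (349 to 420) and myoepithelial-like nuclei (376 to 437) overlapped. Outside these groups, 83 scopolamine nuclei of cluster 8, which was left unnamed, held 651 CPM (560 to 754). In the same libraries fibroblast-like nuclei exceeded acinar-like ones 2.79-fold (2.55 to 3.04), 2.41-fold (2.24 to 2.59) and 1.99-fold (1.80 to 2.19). Of the 7 groups compared, macrophage-like nuclei held the lowest level in tamsulosin and scopolamine, 87.7 and 150 CPM, beside 170 in control.

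Erbb3, the neuregulin receptor with a weak kinase, was highest in acinar-like and duct-like nuclei and the Car6 and Odam clusters. Acinar-like nuclei held 69.8 CPM in tamsulosin, 73.5 in scopolamine and 95.2 in control, duct-like nuclei 78.9, 82.9 and 86.7, and the Car6 and Odam clusters 66.2, 87.1 and 106. In the other 4 groups the levels were 31.0 to 41.4 CPM in tamsulosin, 40.4 to 56.05 in scopolamine and 41.6 to 61.5 in control. Thinned, 6.72, 6.17 and 7.28% of acinar-like nuclei had a UMI, against 2.94, 3.83 and 1.85% of T or NK-like nuclei (unthinned 35.2, 15.9 and 25.9% against 7.84, 10.3 and 9.26%).

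Erbb2, the partner receptor, held 23.4 CPM in tamsulosin, 29.4 in scopolamine and 38.0 in control acinar-like nuclei, and 30.2, 34.5 and 47.5 CPM in duct-like nuclei. Control was the highest library in both. The scopolamine acinar-like level was 0.775 of control (0.692 to 0.867), which is -0.03 on the log2 scale relative to the class median. Thinned, 2.15, 2.7 and 3.37% of acinar-like nuclei had a UMI, close to the 1.47, 1.64 and 2.78% of T or NK-like nuclei (unthinned 14.6, 7.72 and 13.3% against 5.88, 2.16 and 10.2%), so the acinar-like level was little above background by this measure.

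**Figure D3:**
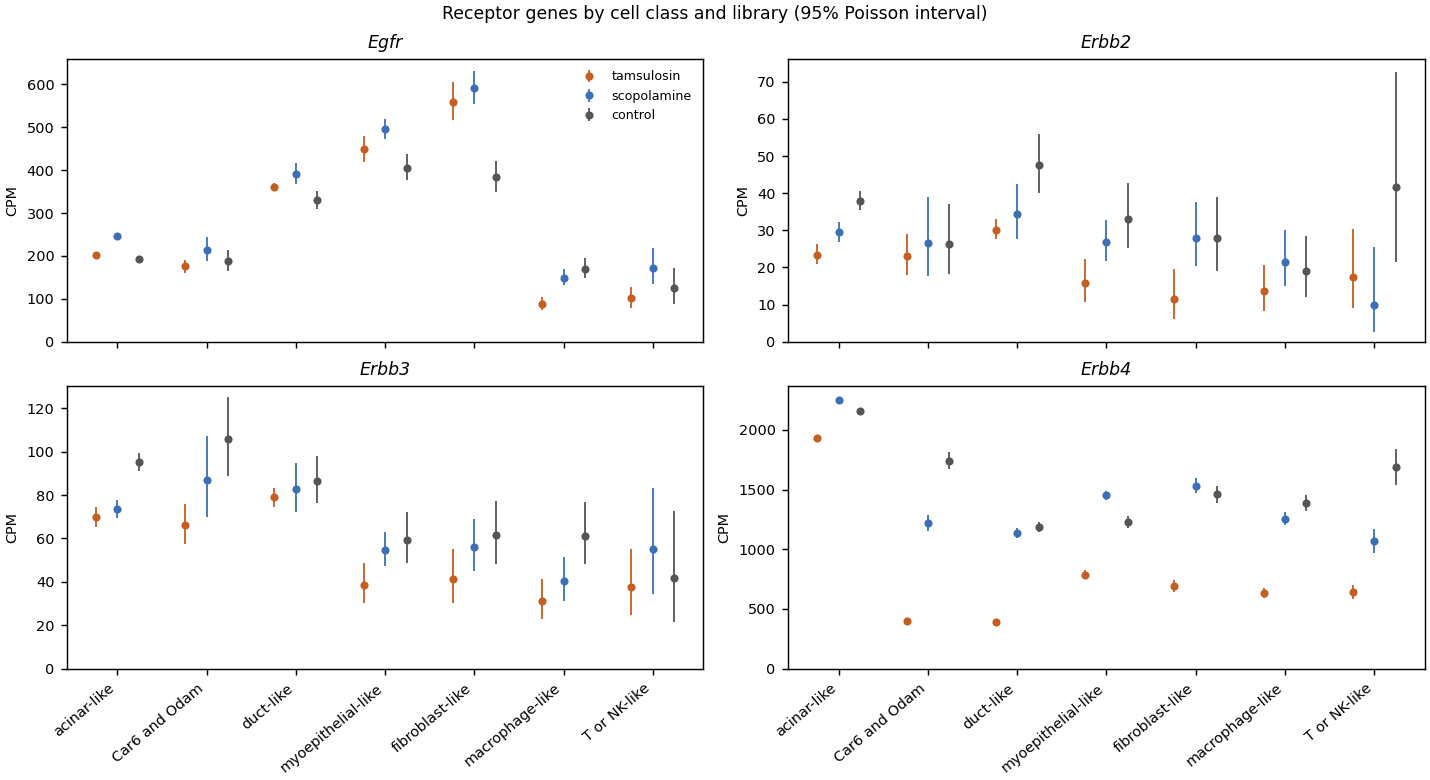
Levels of Egfr, Erbb2, Erbb3 and Erbb4 (CPM, vertical axes, each from 0) in 7 cell groups and 3 libraries, with 95% Poisson intervals. Of these groups, fibroblast-like nuclei are highest for Egfr in both dry eye libraries (560 and 592 CPM), and Erbb4 is at 387 CPM in tamsulosin duct-like nuclei, against 1134 in scopolamine.

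Divided by the length of the gene body, the acinar-like levels can be set beside each other, as CPM per kb. Erbb3 stood at 3.15, 3.32 and 4.30 CPM per kb in tamsulosin, scopolamine and control, and Egf at 2.87, 3.41 and 4.24, the highest of the 9. Erbb4 stood at 1.80, 2.09 and 2.01, Egfr at 1.21, 1.48 and 1.16, and Erbb2 at 0.928, 1.17 and 1.504. Nrg4 stood at 1.21, 1.52 and 0.457 CPM per kb, level with Egfr in both dry eye libraries and below it in control. Btc (0.0450, 0.0441 and 0.0409) and Nrg1 (0.0150, 0.0192 and 0.0221) were far lower in these nuclei. With a 3' kit the count need not grow in proportion to length.

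Across the 7 cell groups a log2 ratio of CPM + 5 was taken, the median of the class was subtracted, and a gene at a mean of 20 CPM or more was counted where it passed 1.5-fold. The class medians for scopolamine against control lay between -0.32 and -0.14. Of the 63 pairs of a gene and a cell group, 49 passed the filter on low levels in scopolamine against control; 13 were higher and 3 lower, where 9.96% of all tested gene and group pairs were higher and 7.76% lower. Nrg4 made up 7 of the 13, with relative log2 ratios of 1.92 in acinar-like, 1.01 in duct-like, 1.67 in fibroblast-like and 1.599 in macrophage-like nuclei. The duct-like value was 0.57, under the fold, with thinned nuclei. Thinned, the shares of nuclei with an Nrg4 UMI in scopolamine and control were 2.78 and 1.89% in duct-like nuclei. They were 7.42 and 3.63% in fibroblast-like and 4.79 and 3.34% in macrophage-like nuclei. In each of these classes the intervals of the 2 libraries overlapped. Egfr was higher in fibroblast-like (0.81), acinar-like (0.63, under the fold in 5 of 12 alternatives) and T or NK-like nuclei (0.70). In acinar-like nuclei, 2 of 7 members that passed were higher and 0 lower, beside 7.29% and 3.79% of genes, and the other 5 (Nrg1, Egf, Erbb2, Erbb3 and Erbb4) lay between -0.06 and 0.35.

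By group, scopolamine against control gave 1 of 7 higher and 0 lower in duct-like nuclei, beside 8.65% and 7.23% of genes, and 1 higher (Nrg4) and 1 lower (Nrg1) of 7 in myoepithelial-like nuclei, beside 5.26% and 4.62%. Fibroblast-like nuclei gave 2 of 7 higher and 0 lower (background 10.4% and 7.43%), and macrophage-like nuclei 1 of 7 and 0 (10.5% and 9.19%). The Car6 and Odam clusters gave 2 of 7 higher, Nrg1 at 0.94 and Nrg4 at 1.01, and 0 lower (11.4% and 8.26%). The Nrg1 value was 0.20, under the fold, with clusters at resolution 2.0. In T or NK-like nuclei, the smallest group, 4 of 7 were higher and 2 lower (16.1% and 13.4%), but for Egfr (1.38, 0.911 to 2.13) and Erbb3 (1.32, 0.627 to 2.93) the interval of the ratio included 1. Of the 13 higher pairs, 7 stayed past the fold in every alternative run: Nrg4 in acinar-like, fibroblast-like, macrophage-like and T or NK-like nuclei and the Car6 and Odam clusters, Egfr in fibroblast-like and Nrg1 in T or NK-like nuclei. In T or NK-like nuclei, which should lack Nrg4, these rest on few UMIs. Nrg4 had 21 against 4 there (3.79-fold, 1.28 to 15.2) and Nrg1 16 against 1. The alternatives largely reuse the same UMIs, so staying past the fold adds little for these 2 pairs. The part of free acinar RNA in the Nrg4 pairs outside acinar-like nuclei was not tested.

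In tamsulosin against scopolamine, 45 of 63 pairs passed the filter, 1 was higher and 14 lower, beside 8.06% and 4.12% of all tested pairs. None of the 14 lay in acinar-like nuclei, where 0 of 6 members that passed were higher or lower (background 1.25% and 0.55%) and Nrg4 was at -0.26. Duct-like nuclei gave 0 of 7 higher and 3 lower (6.99% and 3.69%), myoepithelial-like nuclei 1 and 2 of 7 (7.33% and 1.95%), and the Car6 and Odam clusters 0 and 2 of 7 (8.96% and 2.39%). Fibroblast-like nuclei gave 0 and 3 of 6 (12.8% and 7.76%), and macrophage-like nuclei 0 and 4 of 6 (6.49% and 4.27%). None of 6 passed the fold in T or NK-like nuclei (12% and 7.52%). Erbb4 was lower in 5 of the other 6 groups, Egf and Nrg4 in 4 each and Nrg1 in macrophage-like nuclei alone. Of the 14, 3 stayed past the fold in every alternative run: Nrg4 and Erbb4 in duct-like and Erbb4 in macrophage-like nuclei. The duct-like values set mostly cluster 9 in tamsulosin beside cluster 5 in scopolamine. In fibroblast-like and macrophage-like nuclei Erbb4 was at -0.93 and -0.79 and Egf at -0.84 and -0.70, while Chrm3 was at -0.77 and -0.63. In duct-like nuclei Erbb4 was at -1.35 and Chrm3 at -0.10. Chrm3 stood there at 0.974, 1.12 and 1.06 of its acinar-like level in tamsulosin, scopolamine and control. It therefore cannot trace acinar RNA in duct-like nuclei. The 1 higher pair was Nrg1 in myoepithelial-like nuclei, at 0.98, and it was 0.38 with at least 1600 UMIs per nucleus. In tamsulosin against control, which shares a library with each of the other comparisons, 8 of 45 pairs were higher and 11 lower (background 15.2% and 10.8%).

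**Figure D4:**
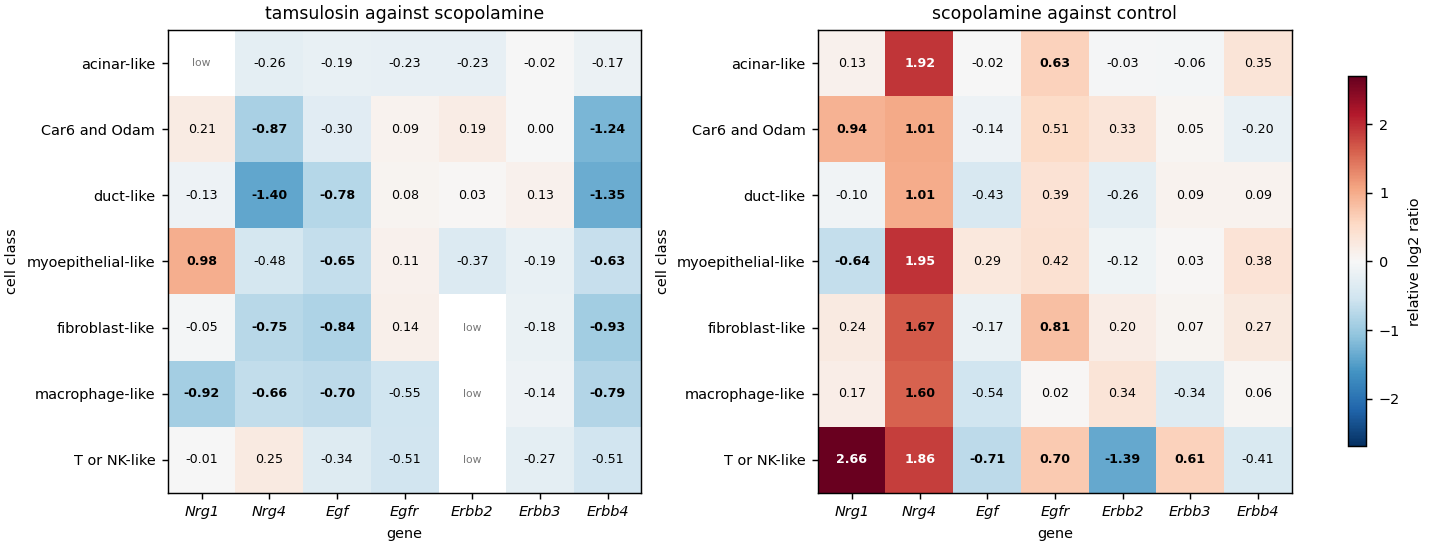
Relative log2 ratios of 7 members in 7 cell groups (colour and printed value; bold past 1.5-fold; low, mean under 20 CPM). Nrg4 is positive in all 7 groups for scopolamine against control (1.92 in acinar-like nuclei), and Erbb4 is negative in all 7 for tamsulosin against scopolamine (-1.35 in duct-like nuclei).

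Of the other ERBB ligands, Nrg2, a further neuregulin, was highest in duct-like nuclei and low in acinar-like ones. Duct-like nuclei held 841 CPM in tamsulosin, 658 in scopolamine and 541 in control, myoepithelial-like nuclei 563, 419 and 430, and acinar-like nuclei 15.1, 25.1 and 31.2. The Car6 and Odam clusters held 532, 611 and 424 CPM of Nrg2, in scopolamine above myoepithelial-like and near duct-like nuclei. Hbegf, a heparin-binding EGFR ligand, held 3.64 CPM in tamsulosin, 3.03 in scopolamine and 12.5 in control acinar-like nuclei, from 46, 51 and 274 UMIs. Both dry eye libraries were below control, with ratios of 0.291 (0.208 to 0.399) and 0.242 (0.176 to 0.327), although the gene was under the filter of 20 CPM. Tgfa held 11.1, 13.6 and 16.5 CPM there. Ereg and Epgn had 1 to 4 UMIs in any whole library, and 23 of the 51 tamsulosin UMIs of Nrg3 lay in T or NK-like nuclei, of which 0.980% had one, which is 2 of 204 by count.

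Genes that act before and after the receptors were counted in 4 lists in acinar-like nuclei. Of 6 genes for release of ligands, 3 passed the filter and 0 were higher or lower in scopolamine against control; of 26 adaptors and transducers, 20 passed and 1 was lower; of 13 inhibitors, 9 passed and 1 was higher; of 10 response genes, 2 passed and 0 were past the fold. Over all genes tested in the class 7.29% were higher and 3.79% lower, so counts of 1 in 20 and 1 in 9 are no result about the lists. The median relative log2 ratios of the 4 lists were 0.28, 0.05, 0.05 and -0.54, beside 0 for all genes by construction. The inhibitor was Errfi1, which binds the kinase domain of EGFR, at 71.1 CPM in scopolamine and 52.5 in control (0.69), and the adaptor was Shc1, at 17.4 and 36.1 CPM (-0.59). Lrig1, an inhibitor of ERBB receptors, at 30.1 and 58.0 CPM (-0.56), and the response gene Phlda1, at 61.7 and 114.6 CPM (-0.55), lay just inside the fold. Rhbdf2, at 37.6 CPM in scopolamine and 31.8 in control (0.50), and Rasa1, which turns off RAS, at 175 and 165 CPM (0.37), were next above. In duct-like nuclei Errfi1 (0.66) and the release gene Rhbdf2 (0.61) were higher, while Phlda1 (-0.58), Spred2 (-0.48) and Plcg1 (-0.43) were lowest among those that passed the filter and within the fold. In tamsulosin against scopolamine, 0 genes of the 4 lists passed the fold in acinar-like or duct-like nuclei. Acinar-like nuclei ranged down from 0.50 for Phlda1, 0.36 for Shc1 and 0.30 for Lrig1 to -0.18 for Gab2 and -0.28 for both Gab1 and Errfi1. In duct-like nuclei the named genes included Spry2 at 0.39, Rhbdf1 at 0.27, Sos1 at -0.25, Pik3ca at -0.35 and Rhbdf2 at -0.41.

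The genes whose log2 levels were most like each member over the 21 combinations of group and library were sought among 9411 genes, as a description; the points share libraries and clusters. For Nrg4 they were 4921518K17Rik (Pearson r = 0.917), AC125149.3 (0.896) and Pigr (0.869), the receptor that carries IgA across epithelium. For Nrg1 they were Dgki (0.936), Bmx (0.912) and Kank4 (0.869), and for Egf Ell2 (0.972), Pde4d (0.971) and Pcmtd1 (0.958). For Erbb4 they were Cadm2 (0.955), 5730522E02Rik (0.952) and Cecr2 (0.9505), and for Egfr Mast4 (0.940), Tcaf1 (0.913) and Arhgef17 (0.908). Erbb3 was most like Rabep2 (0.929), Cracr2b (0.919) and Sox13 (0.908), and Erbb2 most like Trpm4 (0.920), Gm26862 (0.897) and Pcx (0.886). Areg and Btc were under 20 CPM in all groups and were left out.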

How the data were processed

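Single-nucleus libraries of mouse lacrimal gland were read as the raw UMI counts per gene and barcode that the authors deposited, made with Cell Ranger 5.0.0 on mm10 per the submitters' processing notes. The annotation and the counting of introns are not given in the sources used here. Gene and barcode lists carry no other value. Nuclei with at least 500 UMIs, 300 genes and at most 5% mitochondrial UMIs were kept. Scrublet (scanpy 1.11.5) called 0 doublets, so the top scores were removed at 0.8% per 1000 nuclei (1156, 801 and 414). Total counts of the libraries were 57969348, 35237256 and 33500727 for tamsulosin, scopolamine and control. The 1997 variable genes, with members and other ERBB ligands left out, gave 23 Leiden clusters (resolution 1.0, 30 components, 15 neighbours, igraph 0.11.9), without integration.

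Clusters were named from marker lists by thresholds set after the clusters had been seen: a mean log2 of at least 2 over a class's markers with 3 detected in 20% of nuclei; fewer than 350 genes at 1000 UMIs left as low-complexity; duct from a mean of 0.7 with 5 markers; acinar from 5 markers 1.25-fold above non-epithelial nuclei. Members and lists were chosen with earlier results of these data known. UMIs were summed per library and class; groups with at least 100 nuclei in each library were compared. Intervals are exact Poisson for CPM, conditional binomial for ratios and Clopper-Pearson for shares. Ratios used a pseudocount of 5 CPM. The members and other ERBB ligands are all named; from the pathway lists the rule took the 3 highest and 3 lowest ratios in acinar-like and duct-like nuclei, and 3 most alike genes per member. One gene that this rule names is not reported here. The scripts were tested on simulated counts. Each result was recomputed under 11 alternatives fixed with the design and 1 added later.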

Additional observations from a re-analysis of the deposited data

How the results depend on the processing

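The Nrg4 difference between scopolamine and control acinar-like nuclei stayed past the fold in all 12 alternatives (relative log2 ratio 1.63 to 2.02, main value 1.92), as did Egfr in fibroblast-like nuclei (0.62 to 0.91, main value 0.81) and, in the 10 that gave a duct-like value, Erbb4 in tamsulosin against scopolamine (-1.83 to -1.34). That Erbb4 value sets mostly cluster 9 in tamsulosin beside cluster 5 in scopolamine. None of the 10 compared the libraries within 1 cluster. Egfr in scopolamine acinar-like nuclei (0.63) kept the fold in 7 of 12, down to 0.34. With thinned nuclei, Nrg4 was 0.29 in myoepithelial-like (1.95) and 0.57 in duct-like nuclei (1.01). Nrg1 in the Car6 and Odam clusters (0.94) was 0.20 at resolution 2.0, and Erbb4 there in tamsulosin against scopolamine (-1.24) was -0.38. The cause was not tested for these or the next.

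Nrg1 in myoepithelial-like nuclei, scopolamine against control (-0.64), reversed to 0.088 with at least 1600 UMIs. Erbb3 in T or NK-like nuclei (0.61, from 22 and 12 UMIs) reversed to -0.088 with at least 1600 UMIs, -0.28 at resolution 2.0, -0.57 with each library clustered separately and -0.21 with members among the variable genes. The count of lower pairs in scopolamine against control (3) was 1 with doublets kept or members among the variable genes, and 5 with thinned nuclei, at resolution 2.0, without median subtraction or without the filter. In tamsulosin against scopolamine the lower count (14) was 5 with doublets kept. The higher count (1) was 5 with thinned nuclei, and 2 with each library clustered separately, with members among the variable genes, without the 50 most abundant genes, without the filter, or with the Car6 and Odam clusters counted as acinar-like, an alternative chosen after seeing the data. Of the other log2 ratios 266 stayed within counting error, and 85 moved; of levels 123 stayed and 66 moved. With at least 1600 UMIs the duct-like class, and with doublets kept that class and the Car6 and Odam clusters, had too few nuclei to compare. With at least 1600 UMIs the duct-like clusters held 28 and 5 control nuclei. A cluster of 386 control nuclei was then named acinar-like, although Alas1, Car12 and A830008E24Rik were leading genes, as in main cluster 5. With doublets kept, 13 control nuclei were duct-like, and a cluster of 464 control nuclei with these leading genes was unnamed. No paired analysis was possible because each group is 1 library. Depth limits Areg, Btc and Erbb2 most.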
